A study of Homo sapiens with 6 samples.

Results

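The human mitochondrial genome encodes 7 subunits of complex I, the NADH dehydrogenase that opens the respiratory chain. The 7 mRNAs for these subunits (MT-ND1, MT-ND2, MT-ND3, MT-ND4, MT-ND4L, MT-ND5 and MT-ND6) were measured here in RNA that came down with Ago2 from HEK293 cells. They were chosen by gene name from a table of 48162 genes, and 7 of 7 were found. All 7 were among the 16233 genes that passed the filter on low counts.

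HEK293 is an established line derived from human embryonic kidney. In both groups the cells carried transfected Flag-tagged Ago2, the protein that holds small RNAs in the silencing complex. It was given together with a microRNA-219 mimic in 3 libraries (the mimic group) and with a negative control mimic in the other 3 (the control group). The dates in the labels, 22 August, 5 September and 18 September, each gave 1 library of either group. Complexes were collected through the tag and the RNA in them was sequenced. No label says whether the dates were separate cultures, so p-values measure only the spread between these libraries, which may be technical. Input RNA was not used here, so the amount of a transcript in the cells and the amount that came down with Ago2 cannot be told apart, nor can fewer cells and less RNA per cell.

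Complex I takes electrons from NADH, passes them to ubiquinone and pumps protons across the inner mitochondrial membrane. The subunits made inside the mitochondrion form the core of its membrane arm, while the remaining core subunits come from nuclear genes. Mitochondrial DNA is copied into long transcripts from both strands, which are cut at the tRNAs that lie between the mRNAs. MT-ND6 is the member read from the light strand, and MT-ND4L and MT-ND4 share 1 mRNA. HEK293 cells, like most cultured lines, carry many copies of this genome per cell.

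The labels do not say which strand of microRNA-219 the mimic carried, and the series title names microRNA-219a-2. The mature strands listed by RefSeq (build GRCh38.p14) for the microRNA-219a hairpins are shown for reference, since they are the RNAs that the tagged Ago2 could have been loaded with. Capitals mark the seed, bases 2 to 8 from the 5′ end. The first comes from both hairpins (chr6:33207855-33207875, plus strand, and chr9:128392676-128392696, minus strand). The others come from chr6:33207896-33207917 (plus strand) and chr9:128392632-128392653 (minus strand), and no seed is shared between the 3.
hsa-miR-219a-5p: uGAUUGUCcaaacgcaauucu
hsa-miR-219a-1-3p: aGAGUUGAgucuggacgucccg
hsa-miR-219a-2-3p: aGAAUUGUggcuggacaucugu

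Libraries held from 20233819 to 34408699 counts. AGO2, the gene of the transfected protein, took from 12.6 to 16.7% of counts with the mimic and from 10.6 to 18.0% with the control. Of the genes known from HEK293 cells, VIM, KRT18, NEFL, NEFM, LHX1 and PAX2 all had counts (6 of 6 tested). The 13 markers of other cell types summed to 10.3, 22.9 and 25.6 CPM (counts scaled to the library total) in the mimic libraries by date, and in the controls to 44.3, 694 and 37.0 CPM. Of the 694 CPM, 678 were haemoglobin beta (HBB), and PTPRC and MYH7 were at 0 in 5 of 6 libraries each. OLIG2 stood at 8.19 to 14.9 CPM in all 6 libraries. IGHA1 reached 16.3 and PIGR 10.7 CPM, both in the control library of 22 August, and both were at or near 0 in the mimic library of 22 August and the control library of 5 September. The sum of the 13 markers was lowest in the mimic library of 22 August, where the members were highest. What part the markers have in the results was not tested.

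Together the 7 mRNAs took 6.63% of the counts of the mimic library of 22 August (95% Wilson interval 6.62 to 6.64%), 3.37% of that of 5 September (3.36 to 3.38%) and 3.80% of that of 18 September (3.79 to 3.81%). In the control libraries they took 3.91% (3.90 to 3.92%), 3.11% (3.10 to 3.12%) and 3.32% (3.31 to 3.33%) on the same dates. These intervals cover counting error only. The mimic library of 22 August stood far above the other 5, and the remaining libraries lay between 3.11 and 3.91% with the groups interleaved. The group means were 4.60 ± 1.77% with the mimic and 3.45 ± 0.414% with the control (mean ± SD, n = 3 each), a difference of 1.15 percentage points. Without the mimic library of 22 August the difference was 0.139 points, without both libraries of that date 0.370 points, and without the mimic library of 5 September 1.77 points. The share was higher with the mimic on each date, by a ratio of 1.70, 1.08 and 1.15 in date order.

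**Figure D1:**
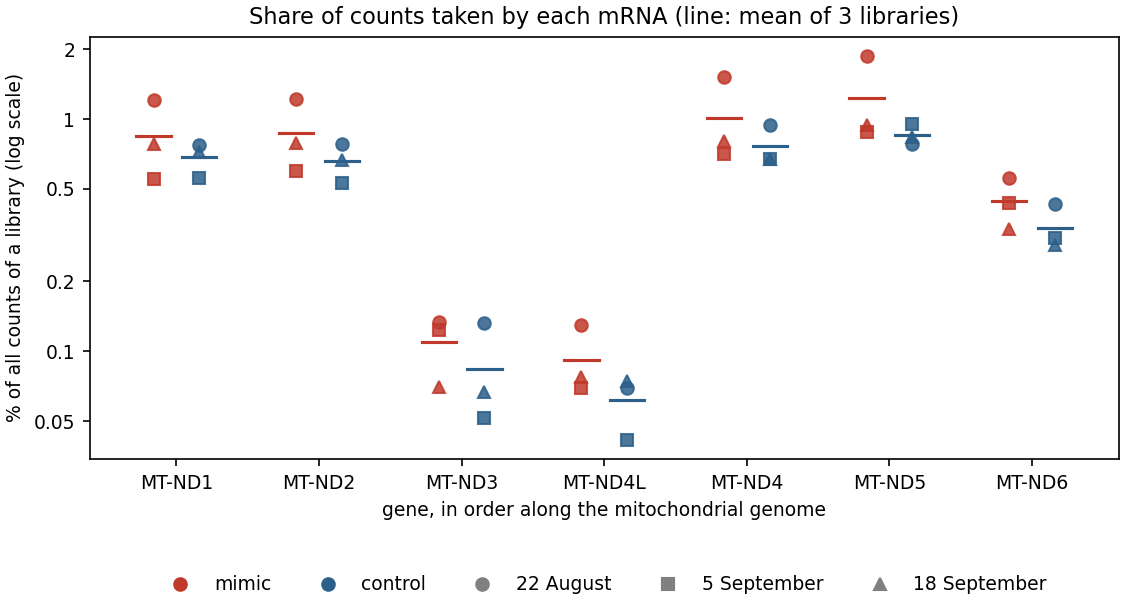
Percent of all counts of a library (log axis) taken by each of the 7 mRNAs, in order along the mitochondrial genome. Red points are mimic libraries, blue points control libraries, shapes are dates and lines are means of 3 libraries. Each mRNA was highest in the mimic library of 22 August, and mimic and control points overlap for all 7.

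Each of the 7 mRNAs had its highest share in the mimic library of 22 August. Of all tested genes, 10.1% were highest in that library. The pattern was not particular to complex I, since each of the other mitochondrial mRNAs was also highest there. All 13 mitochondrial mRNAs together took 13.3% of the counts of that library and from 5.66 to 8.39% of the others. The lowest library differed between members. MT-ND2, MT-ND3 and MT-ND4L were lowest in the control library of 5 September, MT-ND4 and MT-ND6 in that of 18 September, and MT-ND5 in that of 22 August. MT-ND1 was lowest in the mimic library of 5 September.

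MT-ND1, MT-ND3, MT-ND4L and MT-ND6 encode the subunits nearest the matrix arm. MT-ND1 (ENSG00000198888) lies where the membrane arm meets the matrix arm and forms part of the chamber that takes up ubiquinone. It took 1.21, 0.554 and 0.777% of the counts under the mimic, against 0.771, 0.558 and 0.720% under the control, always listed from 22 August to 18 September. Its groups overlapped, and on 5 September the libraries were nearly equal (ratio 0.994). In the fit over all genes its log2 fold change, mimic over control, was 0.34 (SE 0.30, 95% CI −0.30 to 0.98, edgeR adjusted p = 0.999). The exact two-sided permutation p over libraries was 0.5, where the smallest that 3 against 3 allows is 0.1.

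MT-ND3 (ENSG00000198840) carries the matrix loop that moves between the active and resting forms of the enzyme. It took 0.134, 0.123 and 0.0704% of the counts under the mimic, against 0.132, 0.0518 and 0.0668% under the control. On 22 August and 18 September the libraries of a date were within a ratio of 1.01 and 1.05, whereas on 5 September the ratio was 2.38. The difference of MT-ND3 lay mainly on 5 September, where its control library was the lowest of all 6. The fitted log2 fold change was 0.40 (SE 0.34, 95% CI −0.34 to 1.14, edgeR adjusted p = 0.999, exact permutation p = 0.4).

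MT-ND4L (ENSG00000212907), the smallest of the 7 genes, sits beside ND3 and ND6 in the membrane arm. It took 0.129, 0.0692 and 0.0778% of the counts under the mimic, against 0.0697, 0.0415 and 0.0744% under the control. The mimic library was higher by ratios of 1.85 and 1.67 on the first dates and 1.05 on 18 September. Its log2 fold change was the largest of the members, at 0.61 (SE 0.28, 95% CI −0.0034 to 1.21, edgeR adjusted p = 0.999, exact permutation p = 0.3). The unadjusted p of 0.0511 by edgeR was the smallest among the members and ranked 501 over all tested genes.

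MT-ND6 (ENSG00000198695) encodes a subunit with a flexible helix at the centre of the proton path. It took 0.557, 0.433 and 0.335% of the counts under the mimic, against 0.430, 0.306 and 0.287% under the control. Within each date the mimic library was higher, by ratios of 1.30, 1.42 and 1.17, the narrowest range among the members. The groups still overlapped, since the control library of 22 August (0.430%) stood above the mimic library of 18 September (0.335%). The fitted log2 fold change was 0.39 (SE 0.26, 95% CI −0.17 to 0.95, edgeR adjusted p = 0.999, exact permutation p = 0.2).

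The remaining members, MT-ND2, MT-ND4 and MT-ND5, encode the antiporter-like subunits that form the proton channels of the membrane arm. MT-ND2 (ENSG00000198763) took 1.22, 0.596 and 0.791% of the counts under the mimic, against 0.780, 0.530 and 0.663% under the control. MT-ND4 (ENSG00000198886) took 1.51, 0.710 and 0.806% under the mimic, against 0.946, 0.676 and 0.669% under the control. Both were higher with the mimic on each date. Their groups overlapped, as the control library of 22 August stood above the mimic library of 5 September for MT-ND2 and above both September mimic libraries for MT-ND4. Their log2 fold changes were 0.42 (SE 0.29) for MT-ND2 and 0.43 (SE 0.32) for MT-ND4, each with an edgeR adjusted p of 0.999. The exact permutation p was 0.4 for MT-ND2 and 0.5 for MT-ND4.

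MT-ND5 (ENSG00000198786), the longest of the 7 genes, encodes the subunit at the far end of the membrane arm. It took 1.87, 0.883 and 0.945% of the counts under the mimic, against 0.781, 0.948 and 0.839% under the control. On 22 August the mimic library had 2.39 times the share of the control library, the largest ratio of any member on any date, next to the 2.38 of MT-ND3 on 5 September. On 5 September the direction was the opposite (ratio 0.931). Its control library of 22 August held the lowest of the 6 values, whereas for 5 other members that library was the highest control. The fitted log2 fold change was 0.56 (SE 0.31, 95% CI −0.12 to 1.24, edgeR adjusted p = 0.999, exact permutation p = 0.3).

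**Figure D2:**
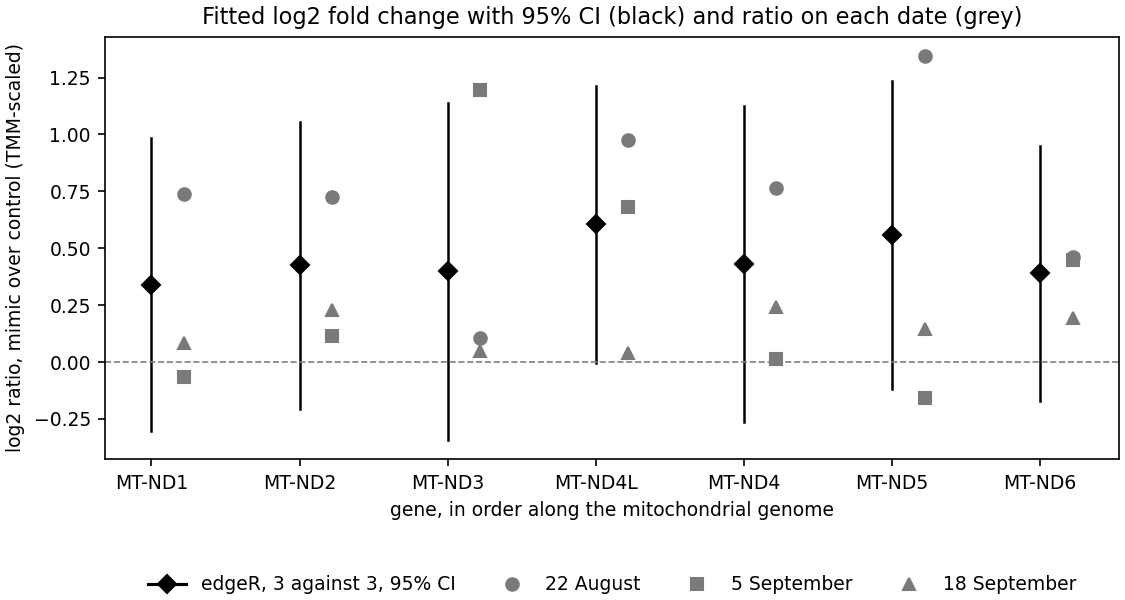
Log2 ratio of mimic over control for each mRNA, scaled by TMM. Black diamonds and bars are the fitted log2 fold change with its 95% confidence interval (3 against 3 libraries), and grey points are the ratio on each date. All 7 intervals include 0, and the dates of MT-ND3 and MT-ND5 lie furthest apart.

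Across the 7, log2 fold changes ran from 0.34 to 0.61 with a median of 0.42, while the median over all tested genes was 0.00. Of the members, 7 of 7 lay above 0, against 50.3% of all tested genes. The groups did not overlap for 0 of 7 members, against 4.08% of tested genes that lay wholly higher with the mimic and 2.79% that lay wholly lower. Likewise 0 of 7 passed an adjusted p of 0.05 by edgeR, DESeq2 or limma-voom. The shares of all tested genes past it were 0% in either direction by edgeR, and by DESeq2 0.0123% on the higher and 0.0185% on the lower side. Before adjustment, p by edgeR was under 0.05 for 0 of 7 members and for 3.01% of all tested genes. With the date as a block it was so for MT-ND2, MT-ND4L and MT-ND6 (3 of 7, and 933 of 16233 genes). DESeq2 with that block gave 5 of 7 (448 of 16233 genes). With no filter on low counts edgeR gave 6 of 7 (937 of 28658 genes). In each of these fits 0 of 7 passed the adjusted threshold. Higher levels with the mimic on all 3 dates were found for 5 of 7 members and for 15.6% of all tested genes. The members are neighbours on a few long transcripts of 1 genome and are not independent of each other. When the mimic library of 22 August was left out, the members had a median of 0.036, with MT-ND1 at −0.098 and MT-ND4 at −0.074. The median was 0.18 with neither library of that date and 0.65 with the mimic library of 5 September left out.

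Dates were then compared, in 1 fit with terms for date and mimic. A date was compared with the average of the other dates, so these comparisons share all libraries. On 22 August the log2 difference was positive for all 7 members, at 0.94 for MT-ND3, 0.87 for MT-ND4, 0.73 for MT-ND2, 0.71 for MT-ND1, 0.69 for MT-ND4L, 0.66 for MT-ND6 and 0.59 for MT-ND5. The median of the members was 0.71, against 0.00 over all tested genes. By edgeR 0 of 7 passed over all genes, where 0.333% of genes were called higher on that date and 0.00616% lower, and the smallest adjusted p of a member was 0.131 (MT-ND6). At an unadjusted p under 0.05, 6 of 7 members were found, against 6.89% of all tested genes. DESeq2 called 6 of 7 higher on 22 August, where 0.647% of all tested genes were called higher and 0.0616% lower. MT-ND5 was the exception in both counts (DESeq2 log2 difference 0.58, SE 0.56).

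The control libraries show how much of this lay outside the mimic library of 22 August. Among controls alone, 22 August was the highest date for MT-ND1, MT-ND2, MT-ND3, MT-ND4 and MT-ND6 (0.430% against 0.306 and 0.287%). It was not the highest for MT-ND4L or MT-ND5. With the mimic library of 22 August left out, the log2 difference of that date was 0.33 for MT-ND1 and −0.14 for MT-ND5, while MT-ND3 stood at 1.19. By edgeR 1 of 7 members passed without that library (1.61% of all tested genes), 6 of 7 without the mimic library of 5 September (1.24%) and 0 of 7 without that of 18 September (0.326%). Without the control libraries, in date order, 6, 7 and 2 of 7 passed, against 8.21, 1.76 and 0.422% of all tested genes.

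On 5 September the members stood lower, with a median log2 difference of −0.44. MT-ND4L (−0.69), MT-ND1 (−0.62) and MT-ND2 (−0.59) were furthest down, and MT-ND6 was at −0.10. By edgeR 0 of 7 passed, where 0% of all genes were called lower, and DESeq2 also gave 0 of 7 (0.314% of all tested genes called lower and 0.0801% higher). On 18 September the median was −0.39, with MT-ND3 at −0.71, MT-ND6 at −0.55 and MT-ND4L at 0.00. Again 0 of 7 passed by edgeR (0.0493% of all genes called lower), while DESeq2 called MT-ND6 lower (1 of 7, adjusted p = 0.0205, against 0.758% of all tested genes called lower and 0.197% higher). At an unadjusted p under 0.05, edgeR gave 4 of 7 members on 5 September (12.9% of all tested genes) and 3 of 7 on 18 September (16.4%). These fits had 2 residual degrees of freedom, and their calls changed with single libraries. For 5 September 3, 2 and 0 of 7 members passed by edgeR without the mimic library of each date in turn, against 14.2, 1.86 and 0.0543% of all tested genes. Without the control library of each date 5, 4 and 0 passed, against 6.7, 0.599 and 0.0844%. For 18 September 2, 3 and 0 passed without a mimic library (7.48, 5.12 and 0.0181% of genes), and 4, 2 and 0 without a control library (22.6, 1.54 and 0.0422%). The share of all genes called rose along with the members in several of these fits.

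**Figure D3:**
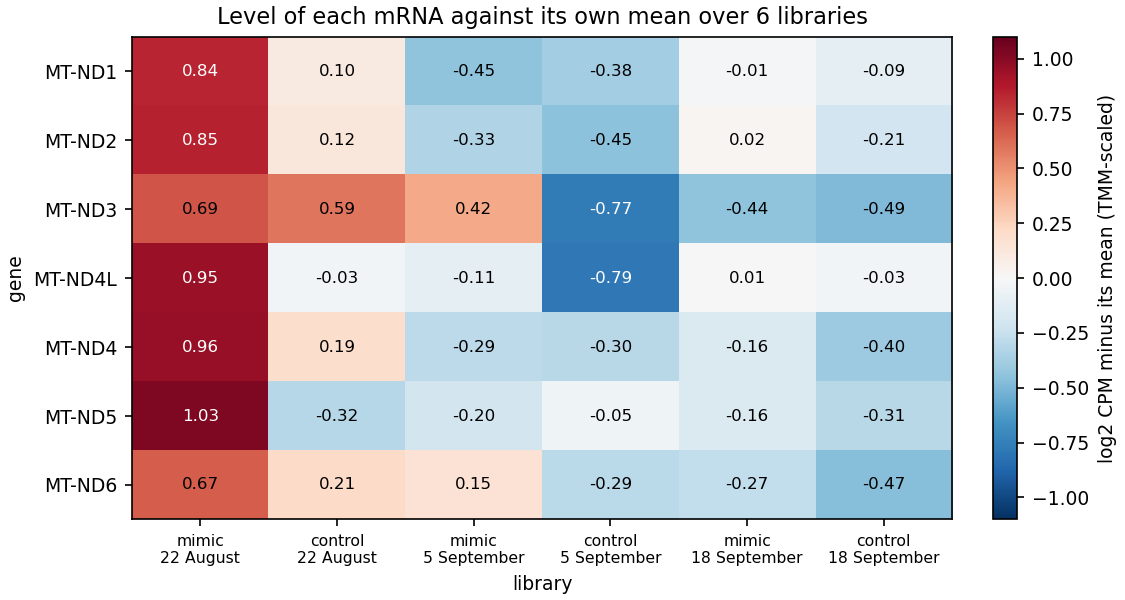
Log2 CPM (TMM-scaled) of each mRNA minus its own mean over the 6 libraries, with rows in genome order and libraries paired by date. Red is above the mean and blue below. The mimic library of 22 August is at 0.67 or more for every member, whereas MT-ND3 and MT-ND4L are lowest (−0.77 and −0.79) in the control library of 5 September.

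Levels of different genes were compared per length, as CPM per kilobase of gene. Averaged over the 6 libraries, MT-ND1 came first at 8005 ± 2517 (SD, n = 6), followed by MT-ND6 (7454 ± 1945), MT-ND2 (7318 ± 2343), MT-ND4 (6434 ± 2352) and MT-ND5 (5763 ± 2258). MT-ND3 (2783 ± 1075) and MT-ND4L (2592 ± 965) lay well below. They are the shortest of the members (346 and 297 bases), though MT-ND6, the next at 525 bases, was among the highest. Outside the members, MT-ATP8 (207 bases, of which 46 overlap MT-ATP6) had 3.20 to 10.7 CPM, against 3198 to 8194 CPM for MT-ATP6. What part gene length and the counting of reads have in these levels was not tested. MT-ND5 was above MT-ND3 and MT-ND2 was above MT-ND4 in 6 of 6 libraries, and MT-ND4 was above MT-ND5 in 5 of 6. Other neighbours changed places: MT-ND1 exceeded MT-ND6 in 4 of 6 libraries, MT-ND6 exceeded MT-ND2 in 3 and MT-ND3 exceeded MT-ND4L in 3, so these pairs did not differ beyond their spread. The span from MT-ND1 to MT-ND4L was between 2.49-fold (mimic, 5 September) and 4.18-fold (control, 5 September).

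**Figure D4:**
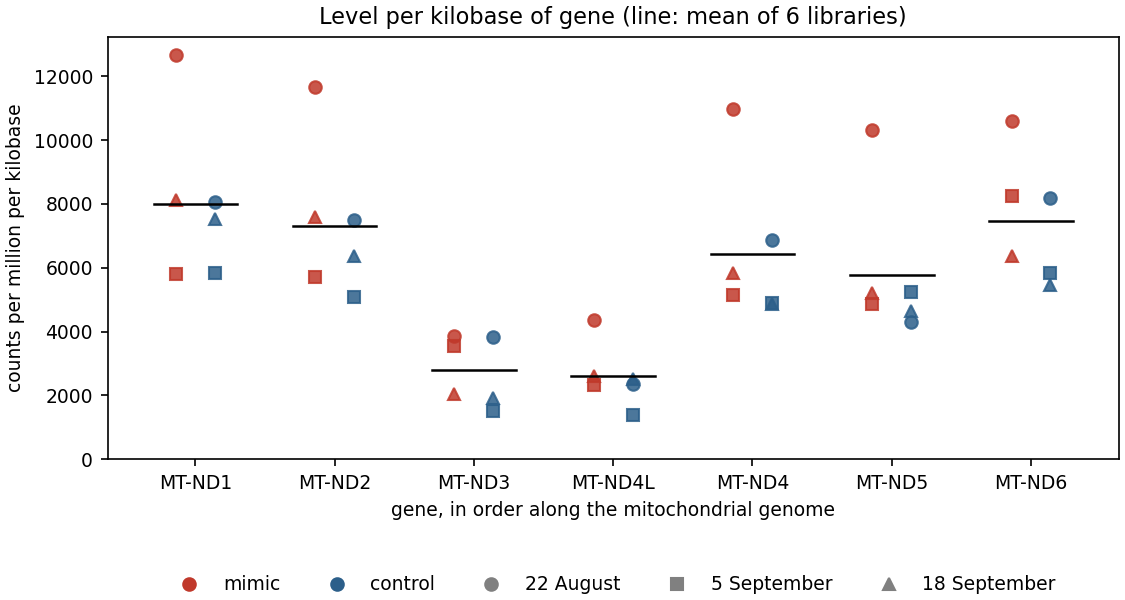
CPM per kilobase for each mRNA (linear axis from 0), in order along the mitochondrial genome. Red points are mimic and blue points control libraries, shapes are dates, and lines are means of 6 libraries. MT-ND3 and MT-ND4L, the shortest of these genes, form a low pair below the other 5 means, which lie between 5763 and 8005.

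MT-ND4L and MT-ND4 are translated from 1 shared mRNA, yet their counts per kilobase differed. The ratio of MT-ND4L to MT-ND4 was 0.396, 0.453 and 0.448 under the mimic, against 0.342, 0.285 and 0.516 under the control. It was below 1 in every library, and both its lowest and its highest value came from controls. The genes overlap by 7 bases (MT-ND4L at MT:10470-10766, MT-ND4 at MT:10760-12137, both on the plus strand as the table gives it). How reads that touch both genes were counted is not given in the sources used here.

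MT-ND1 (MT:3307-4262) and MT-ND2 (MT:4470-5511) kept the steadiest proportion. Their ratio per kilobase ranged from 1.01 to 1.18 over the 6 libraries, the narrowest of the 21 pairs of members. The widest was MT-ND3 (MT:10059-10404) over MT-ND5 (MT:12337-14148), from 0.286 to 0.886, a 3.10-fold spread. Written the other way, MT-ND5 over MT-ND3 was 2.67, 1.37 and 2.56 under the mimic, against 1.13, 3.50 and 2.40 under the control. The mimic and control libraries crossed over between 22 August and 5 September in this ratio and were close on 18 September.

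MT-ND6 (MT:14149-14673, minus strand) lies directly beside MT-ND5 on the opposite strand, with no gap and no overlap. Its ratio to MT-ND5 per kilobase was 1.03, 1.69 and 1.22 under the mimic, against 1.90, 1.11 and 1.18 under the control. This ratio was high in the control library of 22 August and the mimic library of 5 September, the same libraries in which MT-ND5 over MT-ND3 was lowest. Strand-specific counting is not given in the sources used here, so reads of MT-ND6 mRNA and of the opposite strand of its gene cannot be told apart.

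As shares of the 7, MT-ND5 took 28.2, 26.2 and 24.9% under the mimic, against 19.97, 30.5 and 25.3% under the control, the largest swing of any member in percentage points. MT-ND4 took between 20.2 and 24.2%, MT-ND2 between 17.03 and 20.8% and MT-ND1 between 16.5 and 21.7%. MT-ND6 took 8.40, 12.9 and 8.80% under the mimic, against 10.99, 9.83 and 8.65% under the control. MT-ND3 ran from 1.66 to 3.65%, relatively wider than MT-ND5, and MT-ND4L took at most 2.24%. Among the group means of these shares, MT-ND1 had the largest gap, −1.39 points for mimic minus control (18.4 ± 1.99% with the mimic, 19.8 ± 1.88% with the control, n = 3 each). This order was not stable. The gap of MT-ND1 was −0.42 points without the mimic library of 5 September, −0.44 without the control library of 18 September, −2.32 without the control library of 5 September and −2.41 without the mimic library of 18 September. That of MT-ND5, 1.18 points with all libraries, was 0.295 without the mimic library of 22 August, 1.96 without that of 18 September, −1.45 without the control library of 22 August and 3.80 without that of 5 September. Shares of this kind do not depend on how libraries are scaled to each other.

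**Figure D5:**
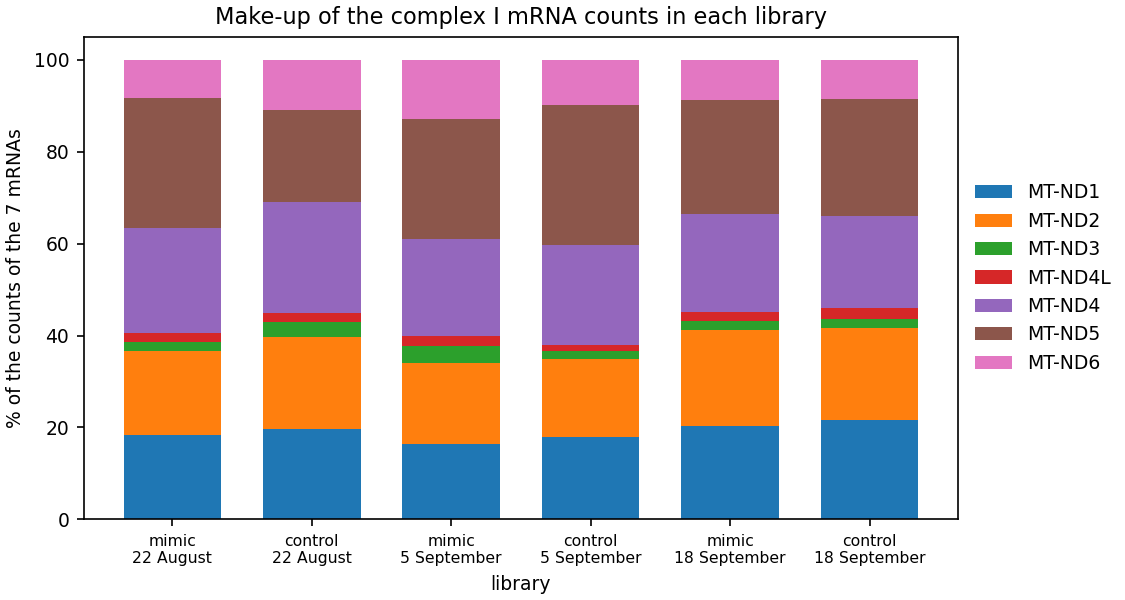
Stacked bars of the percent of the counts of the 7 mRNAs taken by each of them, in the 6 libraries paired by date. MT-ND5 (brown) covers 19.97% in the control library of 22 August and 30.5% in that of 5 September, while the bars of 18 September are close to each other.

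The other mRNAs of the mitochondrial genome had log2 fold changes close to those of the members. MT-CYB, MT-CO1, MT-CO2, MT-CO3, MT-ATP6 and MT-ATP8 encode subunits of complexes III to V. They lay above 0 in 6 of 6 cases, at a median log2 fold change of 0.43 with 0 past the threshold by edgeR. By date, from 22 August on, their median log2 ratios were 0.68, 0.20 and 0.15, against 0.74, 0.11 and 0.15 for the members. Levels were not all alike: MT-ATP8 had 3.20 to 10.7 CPM, whereas the lowest value of any member was 415 CPM (MT-ND4L). The complex I mRNAs took 50.02, 53.9 and 52.3% of all counts of the 13 mitochondrial mRNAs under the mimic, against 46.6, 55.0 and 51.2% under the control. This proportion differed more between dates than between groups.

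Nuclear genes that serve the same complex and the same transcripts had medians below 0, and the counts on either side of 0 did not change under 4 other scalings of the libraries. For the core subunits of complex I from nuclear genes the median was −0.22 (log2 fold change), and 6 of 7 lay below 0. NDUFS8, an iron-sulfur subunit, had −0.32 and NDUFV1, which binds NADH, had −0.28. Assembly factors of complex I had a median of −0.20 with 14 of 17 below 0, among them TMEM186 (−0.35) and ACAD9 (−0.23). Genes of mitochondrial transcription and RNA processing had −0.14 with 23 of 27 below 0. FASTKD5, needed to cut mRNAs that are not flanked by tRNAs, had −0.28, and HSD17B10, a part of mitochondrial RNase P, had −0.29. Factors of mitochondrial translation and membrane insertion had −0.17 with 10 of 13 below 0, among them the elongation factor TSFM (−0.36) and the insertase OXA1L (−0.32). By date, from 22 August on, the median log2 ratios were −0.30, −0.12 and −0.19 for the core subunits and −0.45, 0.068 and −0.16 for the assembly factors. They were −0.36, −0.0076 and −0.081 for transcription and RNA processing and −0.23, −0.037 and −0.14 for translation and insertion. The 4 lists were lowest on 22 August, and on 5 September the assembly factors lay above 0. Over nuclear genes the 22 August medians were −0.13 (up to 600 bases), −0.27 (600 to 1200), −0.18 (1200 to 2400) and 0.11 (longer). What part gene length has in the values of the lists was not tested. Members of these 4 lists past the threshold by edgeR numbered 0 in each, and at an unadjusted p under 0.05 they numbered 0 of 7, 1 of 17, 1 of 27 and 3 of 13, against 3.01% of all tested genes. Lists were described by counts and medians, with 50.3% of all tested genes above 0 and a median of 0.00.

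Copies of mitochondrial genes in the nuclear genome can share reads with the members. Of 158 such pseudogenes of the 7 genes in the table, 12 had a count, and they summed to between 755 and 2308 counts per library. MTND2P28 (chr1:565020-566063, hg19) was counted 2200, 1020 and 1035 times under the mimic, against 1224, 699 and 853 under the control, or 0.383 to 0.642% of the counts of MT-ND2. Its counts were highest in the mimic library of 22 August and lowest in the control library of 5 September. For MT-ND2 this held for the share, while its counts were lowest in the control library of 18 September (134153). The 0.383% came from the control library of 5 September, and the other libraries lay from 0.575 to 0.642%. MTND1P23 (chr1:564442-564813, hg19) had from 25 to 90 counts. The members' counts are uncertain by reads of this kind. How the authors' counting treated such reads is not given in the sources used here.

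Among 4155 nuclear genes with a mean over 50 CPM, those most like the mean profile of the members over the 6 libraries were MSI1, TRIM14, EIF2AK2, PCGF2 and FXYD5. The measure was the largest gap in any library between centred log2 CPM profiles, which was 0.21, 0.22, 0.26, 0.30 and 0.31 for these genes, where the members' own profile spanned 1.29. Single members lay from 0.17 (MT-ND4) to 0.53 (MT-ND3) away from that mean by the same measure. MSI1, an RNA-binding protein of progenitor cells, was 0.86 above its mean in the mimic library of 22 August and EIF2AK2, the kinase that senses double-stranded RNA, was 0.61 above. With 6 libraries, 1 of them far from the rest, such likeness rests largely on that library.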

How the data were processed

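RNA from Flag-Ago2 precipitates of HEK293 cells was measured in 6 libraries (3 per group, 1 per date and group). The authors deposited a table of counts per gene, raw and whole, with gene coordinates and lengths. The submitters' processing notes name STAR 2.5, HTSeq 0.6.1, DESeq2 and build hg19. The coordinates of the 13 mitochondrial mRNAs equal those of RefSeq's GRCh38.p14 table. Columns were mapped to samples by their names, with 0 left over. RNAs of the mitochondrial genome other than its mRNAs were not analysed here.

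Counts were fitted with edgeR 4.0.16 in R 4.3.3 (quasi-likelihood F test, TMM, filterByExpr with min.count 10 and min.total.count 15, no block), with Benjamini-Hochberg adjustment over 16233 genes and a threshold of 0.05. The SE of a log2 fold change was taken as its size divided by the root of F. TMM-scaled ratios per date on the log2 scale used a prior count of 2, while ratios of share used none. Shares and CPM used all counts of a library, including AGO2. Any share of a single member has a 95% Wilson interval within 0.00473 percentage points either way, which covers counting error only. Depth therefore did not limit the members.

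The date, shared by 1 library per group in the labels, was a block in an alternative. Deviations of same-date libraries correlated at 0.0466, 0.154 and 0.513 in date order. Other alternatives were DESeq2 1.42.0, limma-voom (limma 3.58.1), other scaling and filters, and libraries left out. The code was tested on simulated data. Shares, intervals and plots were made in Python 3.11.15 (scipy 1.17.1, pandas 2.3.3, matplotlib 3.10.9).

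The members, gene lists and tests were chosen with earlier results of these data known. All 7 members and the 6 other mitochondrial mRNAs were named, with the 2 genes of lowest p between groups from each list of nuclear genes, the 2 pseudogenes with the most counts and the 5 genes nearest the members' profile. Marker lists are given as sums and counts, and single markers of other cell types were picked after their values were seen. Comparisons between pairs of members, and by gene length, were chosen after values were seen, as was the check of the gene lists under other scalings.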

Additional observations from a re-analysis of the deposited data

Results flagged for a closer look

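The difference between mimic and control went in opposite directions on different dates for 2 of the members, which is what brought them here. With 1 library per group on each date, this difference between dates was not tested. The log2 ratio of MT-ND5 (TMM-scaled, prior count 2) was 1.35 on 22 August, −0.16 on 5 September and 0.15 on 18 September. That of MT-ND1 was 0.74, −0.064 and 0.083 on the same dates, so its reversal was a small one.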

How the results depend on the processing

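No member passed between mimic and control under any of 20 alternatives (0 of 7 each time). With the date as a replicate block in edgeR the median of the members was 0.37 and 0 of 7 passed. The block changed no call of a member. At an unadjusted p under 0.05 that fit gave 3 of 7 members. DESeq2 with the block gave 5 of 7, and edgeR with no filter 6 of 7. With libraries left out in turn the median ran from 0.036 to 0.65, the difference in summed share from 0.139 to 1.77 points, MT-ND1 from −0.098 to 0.59 and MT-ND4 from −0.074 to 0.65. MT-ND5 was −0.012 without both libraries of 22 August. Over denominators without AGO2, without AGO2 and mitochondrial genes, and of TMM effective size, the difference was 1.37, 1.73 and 1.24 points. Genes called higher and lower over the whole table went from 0 and 0 to 2 and 3 in DESeq2, to 4 and 7 when DESeq2 had the replicate block, and to 6 and 14 where scarce genes were kept in. They stayed at 0 and 0 with any library left out.

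Date comparisons were less stable. Genes differing on 22 August went from 55 to 115 with DESeq2 and 240 with no filter, and from 54 to 1363 with a library left out. On 5 September they went from 0 to 64 with DESeq2, 204 with no filter, 14 with no mimic term and from 9 to 2347 with a library left out. On 18 September they went from 8 to 155, 494, 41 and 3 to 3748 in the same settings, and 19 where library sizes left out AGO2 and mitochondrial genes. With no filter edgeR called every member higher on 22 August (240 of 28658 genes differed). It called MT-ND1, MT-ND2, MT-ND4 and MT-ND4L lower on 5 September (204 of 28658). On 18 September it called MT-ND3, MT-ND4 and MT-ND6 lower (494 of 28658). Fits with a library left out had 1 residual degree of freedom and assume that the lone library of a date varies like the others. Some members changed sign from near 0, among them MT-ND4L on 18 September. It was −0.0053 where library sizes left those genes out, −0.032 with no filter and −0.076 with no mimic term. With a library left out it ran from −0.41 to 0.38. MT-ND5, at 0.59 on 22 August with all libraries, ran from −0.14 to 1.21 with a library left out. Its sign on that date changed without the mimic library of 22 August. On 5 September it ran from −0.65 to 0.24 (−0.20 with all libraries) and MT-ND3 from −0.82 to 0.31 (−0.23 with all). MT-ND1 ran from −0.26 to 0.093 on 18 September (−0.092 with all). The cause of these changes was not tested.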

Other observations

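Set in order of gene length, the ratios of mimic over control differed by date. On 5 September the log2 ratio of share was 0.74 for MT-ND4L, 1.25 for MT-ND3 and 0.50 for MT-ND6, the short genes (297, 346 and 525 bases), against −0.01 for MT-ND1, 0.17 for MT-ND2, 0.07 for MT-ND4 and −0.10 for MT-ND5, the long ones (956, 1042, 1378 and 1812 bases). On 22 August the longest gene had the highest ratio (1.26 for MT-ND5), while MT-ND3 and MT-ND6 had the lowest (0.02 and 0.37) and the shortest, MT-ND4L, had 0.89. On 18 September the range was 0.06 to 0.27 with no such split. The medians for nuclear genes that follow are TMM-scaled with a prior count of 2, unlike the ratios of share above. On that scale MT-ND1 stood at 0.74 on 22 August and −0.064 on 5 September, against 0.65 and −0.01 as ratios of share. Over nuclear genes the median log2 ratio on 5 September was 0.08 for 485 genes of up to 600 bases and 0.13 for 1237 genes from 600 to 1200. It was 0.01 for 3801 genes from 1200 to 2400 and −0.01 for 10697 longer ones. On 22 August these medians were −0.13, −0.27, −0.18 and 0.11. What part gene length has in the members' ratios was not tested.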
